A study of Homo sapiens with 7 samples.

Results

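Both guides against ZFP36L2 were compared with each other in MOLM13, a line established from human acute myeloid leukemia with features of monocyte precursors. The 4 libraries compared were 2 with the guide that the deposited columns number 3 and 2 with the guide they number 5, of 7 libraries in the series. The other 3 received sgRosa, which the labels describe as non-targeting, and serve here only as a reference level. All 7 share the cell line, its medium, transduction with a guide, and harvest of RNA at day 6, and all were made from poly(A) RNA. The members are all genes with FPKM, a count of reads divided by the length of the gene and the depth of the library: 11408 genes, of which the 6783 with at least 1 FPKM in at least 2 libraries were tested. The labels number the guides differently and do not give the origin of the replicates, so p-values measure the spread between these libraries alone.

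ZFP36L2 encodes an RNA-binding protein that attaches to AU-rich elements of mRNAs and speeds their decay, and it is known for roles in the maturation of blood cells. Guides against the same gene share the intended target and differ in the place of the cut, in the edits left there and in the other sites that may be cut. Each guide has its own pair of libraries, so a difference between guides and a difference between the cultures that received them cannot be told apart.

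Guide 3 libraries held 33735298 and 38807816 reads on listed genes and guide 5 libraries 36556997 and 28088053, against 16907955 to 25164359 in controls. Weighted by these reads, gene GC content averaged 49.8% and 50.7% for guide 3, 49.8% and 48.7% for guide 5, and 47.0% to 48.7% in controls. Control replicate 2 stood apart, with 0.160% of its reads on mitochondrial pseudogenes and the remaining 6 libraries 0.0463% to 0.0828%. All 10 markers of MOLM13 were listed, and their summed level was 2770 to 3368 FPKM with guide 3, at 1816 to 1934 FPKM with guide 5 and 725 to 1270 FPKM in controls. LYZ made up most of that sum, while FLT3 averaged 2.54 FPKM with guide 3, 3.79 FPKM with guide 5 and 5.44 FPKM in controls, and MPO 4.29, 4.87 and 7.95 FPKM in that order. Markers of B cells, erythroid cells and megakaryocytes had 0 genes with FPKM. CD3D, with FPKM as the only gene of 7 T cell markers, was at 1.504 to 1.95 FPKM with guide 3, at 1.76 to 2.10 FPKM with guide 5 and at 3.60 to 4.88 FPKM in controls. NKG7, the only gene of 4 for NK cells, was at 84.4 to 86.9, at 64.6 to 81.8 and at 17.5 to 34.7 FPKM in the same order. The part of these marker levels in the results was not tested.

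The targeted mRNA itself was at 269 and 322 FPKM with guide 3, at 174 and 164 FPKM with guide 5 and at 80.2, 79.3 and 73.9 FPKM in controls. Both guide 5 libraries lay below both guide 3 libraries and above all controls. The log2 difference of ZFP36L2, guide 5 minus guide 3, was -0.80 ± 0.22 (SE, 95% interval -1.28 to -0.32), with an adjusted p of 0.18 by limma, short of the threshold of 0.05. ZFP36L2 (ENSG00000152518) lies on chromosome 2, 43222402 to 43226609, in GRCh38, and an mRNA level does not show whether its protein was lost. The paralog ZFP36 differed by -0.32 ± 0.25 and ZFP36L1 by 0.08 ± 0.13, and neither passed the test.

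With guide 5 the cells held more mRNA of stress response and amino acid supply genes and of several interferon-stimulated genes. They held less mRNA of S100A8, S100A9, S100A12 and some other products of maturing monocytes. Of 6783 genes tested with limma, 31 were higher with guide 5 (0.457% of those tested) and 19 were lower (0.28%). Without adjustment, p was under the threshold for 197 genes higher with guide 5 (2.9%) and 577 lower (8.51%). Both guide 5 libraries lay above both guide 3 libraries for 1566 genes (23.1%) and below them for 2757 genes (40.6%), and the median log2 difference of all tested genes was -0.07. With 2 libraries against 2, an exact permutation test of a single gene cannot give p below 0.333, so each call rests on the spread that limma pools over genes.

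The number of calls depended on the libraries in the fit. From the 4 guide libraries alone, 247 genes were higher (3.64%) and 620 lower (9.14%), and with library weights 333 were higher (4.91%) and 895 lower (13.2%), and both sets held all 50 genes called above. The share of higher genes among calls was 62% in the fit with 3 controls, 28.5% without controls and 27.1% with weights, which gave control replicate 2 the lowest weight, 0.146. Without control replicate 2, 89 genes were higher (1.31%) and 130 lower (1.92%). Without guide 3 replicate 1 or 2 the counts were 17 and 13 higher and 6 and 9 lower, without guide 5 replicate 1 or 2 they were 16 and 17 higher and 9 and 6 lower, and without control replicate 1 they were 25 higher and 11 lower. Of the 50 genes called, 19 passed whichever library was left out, 13 of them higher and 6 lower with guide 5. All 50 kept their direction under each of the 23 alternatives in which they were tested.

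**Figure D1:**
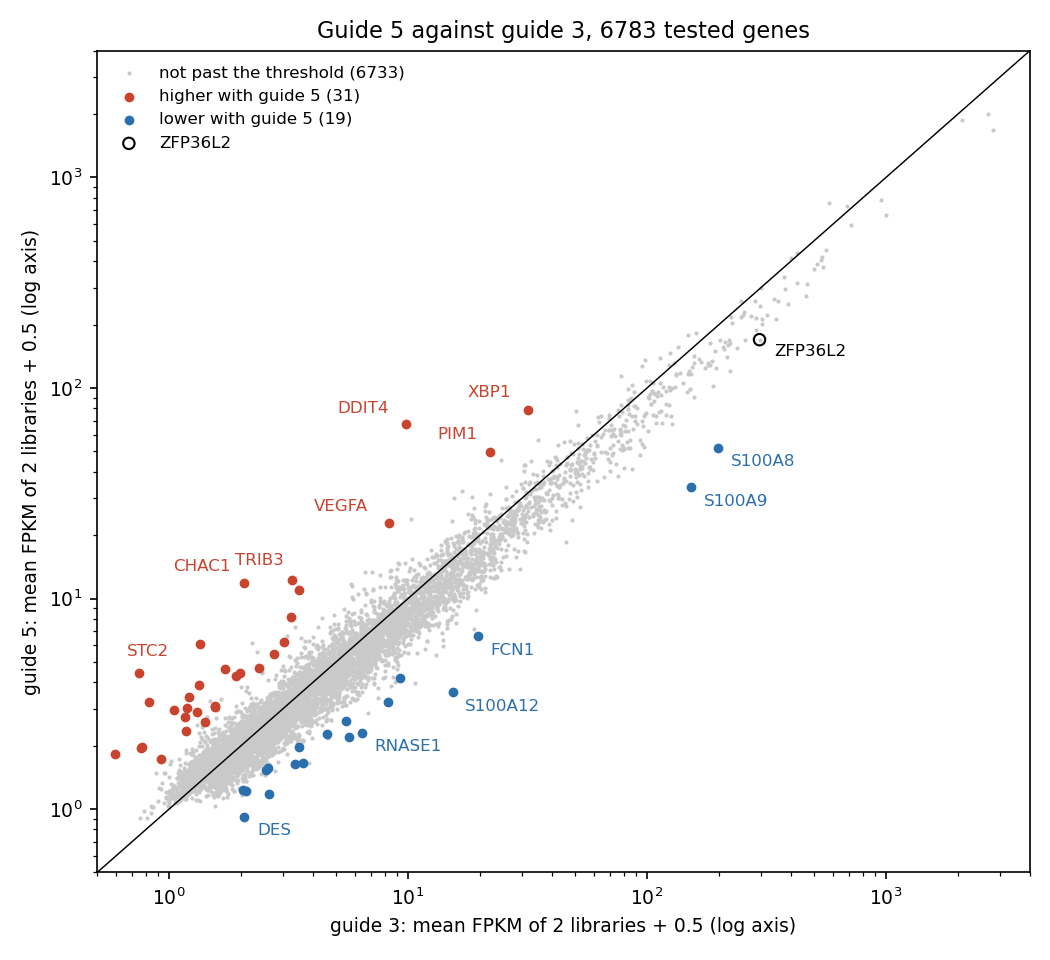
Mean FPKM + 0.5 of the 2 libraries with guide 3 (horizontal, log axis) against that with guide 5 (vertical, log axis) for 6783 tested genes, with the 31 genes higher with guide 5 in red, the 19 lower in blue and ZFP36L2 as an open circle. DDIT4, STC2 and CHAC1 lie far above the line of equal values, and S100A8, S100A9 and S100A12 far below it.

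The stress genes formed the most distinct group. ATF4 is a transcription factor whose mRNA is translated more when the initiation factor eIF2 is phosphorylated, as happens under amino acid shortage, heme loss or protein folding stress. It turns on genes for amino acid synthesis and uptake, for tRNA charging and for feedback control, together called the integrated stress response. Of 25 tested genes on a list of this response, 10 were higher with guide 5, against 0.457% of all genes. None was lower, and 15 did not pass the test. The median log2 difference of the 25 was 0.95, beside -0.07 over all genes tested, and it ran from 0.88 to 1.17 over the alternatives. Both guide 5 libraries lay above both guide 3 libraries for 22 of the 25, against 23.1% of all genes. By the unadjusted p 21 were higher, against 2.9% of all genes. Without control replicate 2 the call was reached by 19 of the 25, against 1.31% of all genes.

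DDIT4, also called REDD1, an inhibitor of the growth kinase complex mTORC1, was at 71.3 and 63.1 FPKM with guide 5, at 7.61 and 10.9 FPKM with guide 3 and at 4.49, 2.36 and 5.15 FPKM in controls. The guide 5 libraries were thus well apart from the other 5, with a log2 difference between guides of 2.81 ± 0.31 (SE, adjusted p = 0.0018, limma). STC2, a secreted glycoprotein of the stress response, stood at 4.12 and 3.78 FPKM with guide 5, at 0.266 and 0.235 FPKM with guide 3 and at 0.110, 0.0379 and 0.0637 FPKM in controls, a difference of 2.57 ± 0.13 (adjusted p = 1.2e-05). On the FPKM scale itself the guide 5 mean of STC2 was 15.8 times the guide 3 mean, since the 0.5 added before taking logs shrinks differences of low values. CHAC1, which breaks down glutathione, was at 12.9 and 9.75 FPKM with guide 5 and at 1.13 and 1.97 FPKM with guide 3, and at 0.290 to 0.502 FPKM in controls. Its difference was 2.55 ± 0.23 (adjusted p = 0.00093), and again the guides did not overlap. TRIB3, a pseudokinase that restrains ATF4 signalling, was at 12.5 and 11.1 FPKM against 2.41 and 3.15 FPKM, a difference of 1.91 ± 0.23 (adjusted p = 0.0025).

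Of the called members, several serve amino acid supply. PSAT1 and PHGDH make serine from a glycolytic intermediate. PSAT1 was at 10.4 and 10.7 FPKM with guide 5, at 2.98 and 3.01 FPKM with guide 3 and at 3.50 to 3.64 FPKM in controls, a difference of 1.66 ± 0.17 (adjusted p = 0.0012). PHGDH was at 4.33 and 4.05 FPKM with guide 5 and at 1.86 and 1.92 FPKM with guide 3, a difference of 0.97 ± 0.17 (adjusted p = 0.037). CTH, which makes cysteine, was at 1.28 and 1.38 FPKM with guide 5 against 0.102 and 0.0895 FPKM with guide 3, with controls between at 0.194 to 0.245 FPKM (difference 1.62 ± 0.11, adjusted p = 9.9e-05). For CTH the guide 3 libraries lay below the controls and the guide 5 libraries above them. ALDH1L2, of mitochondrial folate metabolism, was at 2.81 and 3.03 FPKM against 0.701 and 0.715 FPKM (difference 1.499 ± 0.21, adjusted p = 0.0071).

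Other called genes outside the list had related roles, and were placed beside it after their values were seen. GPT2, a mitochondrial alanine aminotransferase, was at 2.55 and 2.37 FPKM with guide 5 and at 0.501 and 0.602 FPKM with guide 3 (difference 1.49 ± 0.15, adjusted p = 0.0010). ADM2, a peptide hormone of the adrenomedullin family, was at 6.69 and 4.52 FPKM against 0.749 and 0.947 FPKM (difference 2.16 ± 0.22, adjusted p = 0.0010). The glutamine carrier SLC38A1 differed in another manner. It was at 3.98 and 4.29 FPKM with guide 5, inside the control range of 3.14 to 4.53 FPKM, and at 1.22 and 1.20 FPKM with guide 3 (difference 1.44 ± 0.20, adjusted p = 0.0070), so the guide 3 libraries were the ones away from control. The cationic amino acid carrier SLC7A1 was at 6.04 and 5.44 FPKM with guide 5 against 2.45 and 2.62 FPKM with guide 3, a difference of 1.04 ± 0.20 (adjusted p = 0.049).

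DDIT4, STC2, CHAC1, TRIB3, PSAT1, CTH, VLDLR, ADM2 and GPT2 passed whichever library was left out. PHGDH reached adjusted p = 0.42, SLC7A1 0.47 and SESN2 0.18 without guide 3 replicate 1, ALDH1L2 0.070 without that library, and SLC38A1 0.10 without guide 5 replicate 2. DDIT4 and VLDLR each overlap an antisense gene, and whether counting used strand is not given in the sources used here, so reads of the partner are not separated with certainty.

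**Figure D2:**
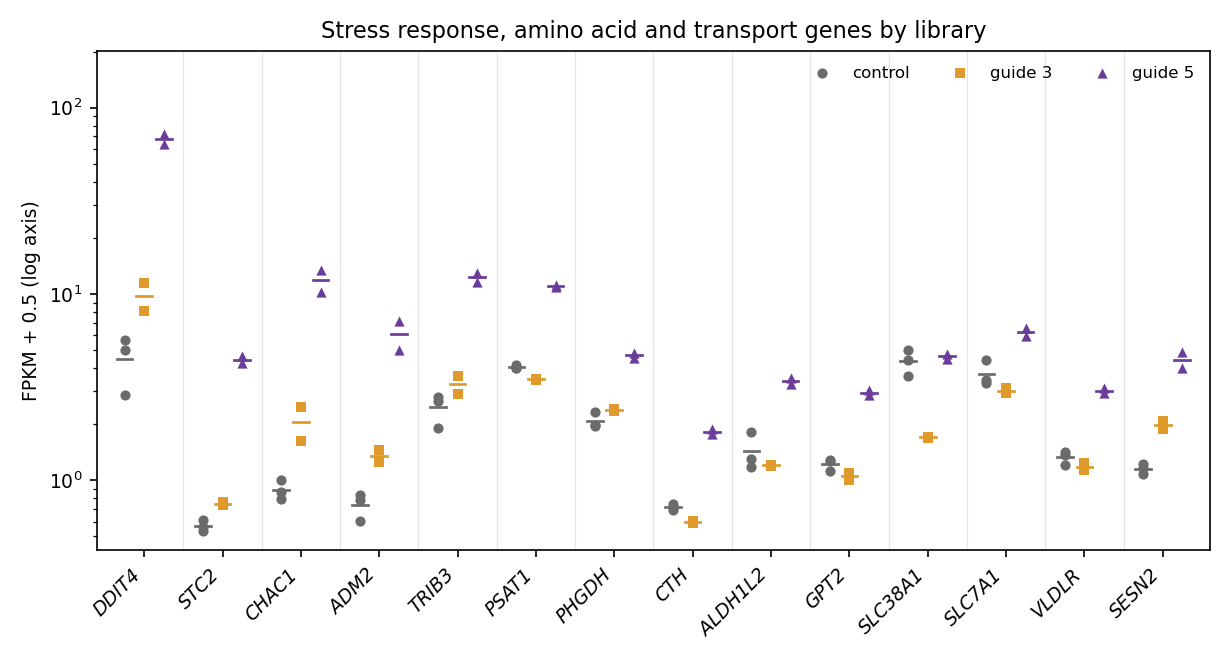
FPKM + 0.5 (log axis) of 14 stress response, amino acid and transport genes in each library, with controls as circles, guide 3 as squares, guide 5 as triangles and the mean of each group as a line. The guide 5 libraries lie above the guide 3 libraries for every gene shown, and DDIT4 spans the widest range, from 2.36 FPKM in a control to 71.3 FPKM with guide 5.

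Not all of the response separated the guides. ATF4 itself was at 115 and 114 FPKM with guide 5 and at 78.8 and 76.0 FPKM with guide 3, a difference of 0.56 ± 0.22 that did not pass (adjusted p = 0.38). DDIT3, the cell death factor CHOP, differed by 0.18 ± 0.26, the bZIP factor ATF5 by -0.01 ± 0.22, and CEBPB, which binds DNA with ATF4 and also serves monocyte maturation, by -0.27 ± 0.33. The amino acid carriers SLC7A5 (1.22 ± 0.24, adjusted p = 0.054) and SLC7A11 (0.76 ± 0.16, adjusted p = 0.080) and the folate enzyme MTHFD2 (0.95 ± 0.20, adjusted p = 0.069) lay just short of the threshold. ASNS, asparagine synthetase, was under the level required for the test, at 0.295 and 0.174 FPKM with guide 5 and at 0.0388 and 0.0627 FPKM with guide 3.

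The endoplasmic reticulum arm of stress did not move as a group. Of 19 tested genes for chaperones and the unfolded protein response of that compartment, XBP1 was higher with guide 5 and none was lower. By the unadjusted p 3 were lower, against 8.51% of all genes, and the median of the list was -0.14. The sign of that median turned to 0.10 when libraries were scaled to a common sum. XBP1 encodes the transcription factor that is spliced by the sensor IRE1. Its mRNA was at 73.2 and 83.8 FPKM with guide 5, with controls at 67.0 to 78.1 FPKM, and at 31.1 and 31.2 FPKM with guide 3 (difference 1.32 ± 0.20, adjusted p = 0.014, and 0.31 without guide 5 replicate 2). The chaperone HSPA5 was at 59.0 and 65.5 FPKM with guide 5 and at 85.4 and 80.9 FPKM with guide 3, and SDF2L1 at 7.66 and 5.67 FPKM against 15.9 and 21.0 FPKM. Neither passed the test.

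The aminoacyl-tRNA synthetases, which load amino acids onto tRNAs, were called in 0 of 20 tested genes by limma, and 6 were higher with voom on recovered reads. By the unadjusted p 11 were higher and 0 lower, against 2.9% and 8.51% of all genes. Their median difference was 0.58, from 0.45 to 0.79 over the alternatives. Both guide 5 libraries lay above both guide 3 libraries for 14 of 20, against 23.1% of all genes. The cytosolic enzymes for glycine (GARS, 12.01 and 13.7 FPKM with guide 5 against 6.38 and 5.80 FPKM with guide 3), tryptophan (WARS, 12.4 and 12.4 against 7.57 and 6.68 FPKM) and alanine (AARS, 13.5 and 12.5 against 7.85 and 8.03 FPKM) were among those apart. HARS, QARS and FARSA lay the other way, with both guide 5 libraries below both guide 3 libraries. Compared with controls the group was mixed. For 6 of 20 the order of means was guide 3 lowest, then guide 5, then control, near the share of all tested genes (29.7%). IARS had this order, at 3.63 and 3.38 FPKM with guide 3, at 5.86 and 6.28 FPKM with guide 5 and at 5.62 to 8.55 FPKM in controls. For 4 the order was control, guide 3, guide 5, against 7.58% of all tested genes. For 4 it was guide 3, control, guide 5, against 3.42%. Without control replicate 2, 9 of the 20 were called higher, against 1.31% of all genes, and 0 lower.

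Promoter sequences of RefSeq (GRCh38.p14), from 250 bases before to 50 bases after each gene start, were searched on both strands for the element that ATF4 binds with C/EBP partners, TGATGNAA. It was found in 2 of 20 tested stress response promoters (10%), in 6 of 16 tRNA synthetase promoters (37.5%), in 1.70% of 5352 promoters of tested genes and in 3.67% of all 27305. Among called genes it was in 3 of 23 promoters of higher genes (13.0%) and in 0 of 11 of lower genes. The matches upstream of the start are shown for a called gene of the response and for a pair of synthetases, on the gene's strand, with the element in capitals (here read on its reverse strand).
CHAC1, chr15:40953242-40953289, plus strand: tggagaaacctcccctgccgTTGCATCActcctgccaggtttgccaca
AARS, chr16:70289666-70289713, minus strand: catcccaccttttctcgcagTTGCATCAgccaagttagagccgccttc
IARS, chr9:92293698-92293730, minus strand: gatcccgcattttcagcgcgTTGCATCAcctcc
All 3 hold the same letters, TTGCATCA, and the CHAC1 match begins 209 bases before the start, the AARS match 187 and the IARS match 13. A match describes the letters and does not show binding, and promoters without it in this window may hold it elsewhere.

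Interferon-stimulated genes made up the next group. Type I interferons act through the receptor IFNAR and transcription factors that bind a response element in promoters and switch on antiviral genes. Of 36 tested genes on this list, 5 were higher with guide 5, against 0.457% of all genes, 0 were lower and 31 did not pass. The median difference was 0.53, from 0.23 to 0.74 over the alternatives, beside -0.07 over all genes. Both guide 5 libraries lay above both guide 3 libraries for 29 of 36, against 23.1% of all genes. By the unadjusted p 22 were higher, against 2.9% of all genes. For 33 of 36 the order of means was control, then guide 3, then guide 5, against 7.58% of all tested genes.

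IFI44L and IFI44, neighbours on chromosome 1 that encode related proteins, stood furthest apart. IFI44L was at 1.33 and 1.58 FPKM with guide 5, at 0.333 and 0.199 FPKM with guide 3 and at most 0.00823 FPKM in controls (difference 1.36 ± 0.13, adjusted p = 0.00093). IFI44 was at 1.31 and 1.63 FPKM with guide 5 and at 0.333 and 0.212 FPKM with guide 3 (difference 1.35 ± 0.13, adjusted p = 0.00093). In reads, IFI44L rested on 1304 and 1213 with guide 5 and 286 and 200 with guide 3. IFITM1, a membrane protein that blocks virus entry, was at 2.59 and 2.19 FPKM with guide 5 and at 0.743 and 0.873 FPKM with guide 3 (difference 1.14 ± 0.14, adjusted p = 0.0024), and it overlaps IFITM2 on the same strand in the annotation. OAS2, which makes the activator of the RNA-degrading enzyme RNase L, was at 4.81 and 5.09 FPKM against 2.76 and 1.71 FPKM (difference 1.02 ± 0.19, adjusted p = 0.040, and 0.41 without guide 3 replicate 2). LGALS3BP, a secreted glycoprotein, was at 2.93 and 2.26 FPKM against 1.13 and 0.967 FPKM (difference 0.99 ± 0.15, adjusted p = 0.011, and 0.12 without guide 3 replicate 2). IFI44L, IFI44 and IFITM1 passed whichever library was left out.

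CXCL10, a chemokine induced by interferon and outside the list, was at 7.14 and 8.26 FPKM with guide 5, at 3.21 and 2.24 FPKM with guide 3 and at 2.26 to 3.36 FPKM in controls. Here the guide 3 libraries were at the control level and the guide 5 libraries above both (difference 1.36 ± 0.23, adjusted p = 0.023, and 0.32 without guide 3 replicate 2). Like DDIT4 and VLDLR, CXCL10 overlaps an antisense gene, so reads of the partner are not separated with certainty. The best known genes of the response differed less. ISG15, a ubiquitin-like protein, was at 83.3 and 60.8 FPKM with guide 5 and at 63.0 and 60.9 FPKM with guide 3, with overlapping libraries. IFI6 was at 49.1 and 35.7 FPKM against 28.5 and 31.4 FPKM, and MX1 at 4.31 and 4.25 FPKM against 2.88 and 2.13 FPKM, a difference of 0.68 ± 0.16 (adjusted p = 0.13). The transcription factor IRF7 was at 12.2 and 9.37 FPKM with guide 5 and at 10.9 and 11.5 FPKM with guide 3, so the libraries overlapped.

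**Figure D3:**
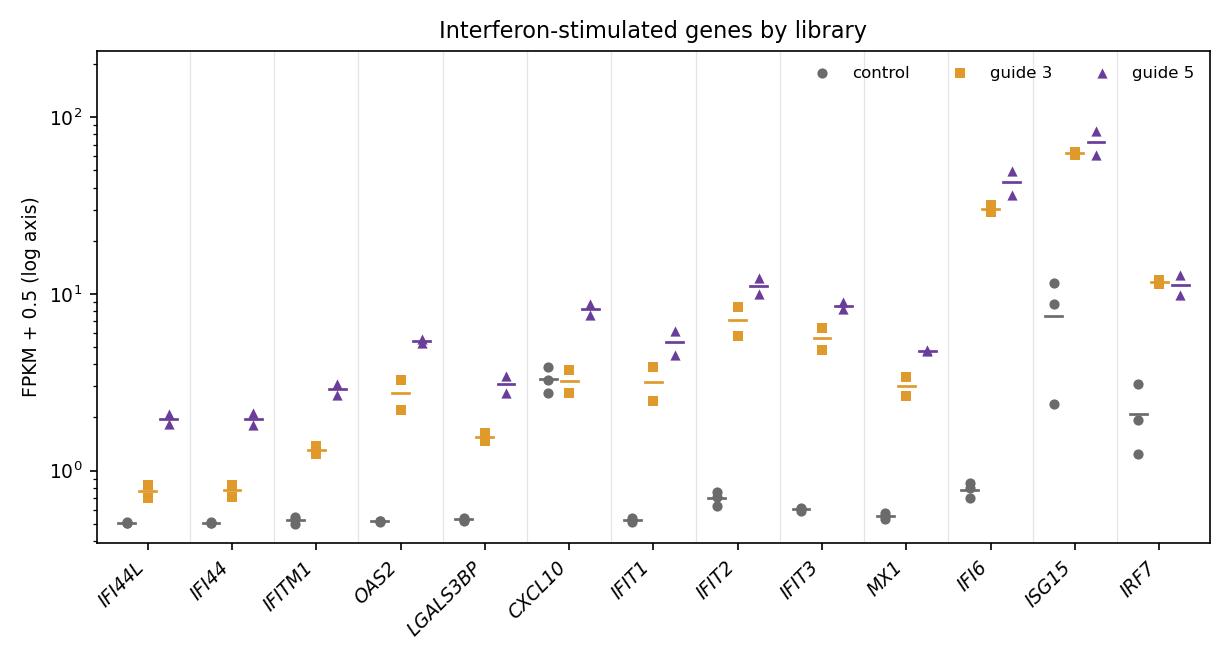
FPKM + 0.5 (log axis) of 13 interferon-stimulated genes in each library, with controls as circles, guide 3 as squares, guide 5 as triangles and group means as lines. IFI44L and IFI44 show the widest gap between guides, while for ISG15 and IRF7 the guides overlap.

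The interferon-stimulated response element was searched as GAAANNGAA on both strands in the same promoter windows. It was present in 19 of 27 tested members with a promoter (70.4%), against 7.40% of promoters of tested genes and 8.29% of all promoters. The list is one of interferon-stimulated genes, so its share does not bear on the difference between guides. Among called genes the element was in 5 of 23 promoters of higher genes (21.7%) and in 1 of 11 of lower genes (9.09%). A match upstream of the start is shown for each of 5 genes higher with guide 5, with the element in capitals, on the strand of the gene.
IFI44L, chr1:78620264-78620312, plus strand: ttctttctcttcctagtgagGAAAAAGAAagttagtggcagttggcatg
IFI44, chr1:78649752-78649788, plus strand: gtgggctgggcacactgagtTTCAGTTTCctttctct
IFITM1, chr11:313980-314028, plus strand: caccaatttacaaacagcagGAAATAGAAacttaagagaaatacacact
LGALS3BP, chr17:78979953-78980001, minus strand: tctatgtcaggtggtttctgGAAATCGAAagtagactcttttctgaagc
CXCL10, chr4:76023690-76023738, minus strand: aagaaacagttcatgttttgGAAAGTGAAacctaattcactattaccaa
In IFI44L the same window recurs at chr1:78620355-78620403, so its promoter holds the element at 164 and at 73 bases before the start. IFI44 carries it on the reverse strand at 17 bases before the start, and IFITM1 holds a further match at 6 bases. The element was not limited to genes higher with guide 5: S100A8, which was lower, holds it as TTCAGTTTC at 248 bases before the start.

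The monocyte program went the other way. MOLM13 cells resemble monocyte precursors, and maturing monocytes produce the calcium-binding S100 proteins, the lectin ficolin, lysozyme, and surface receptors such as CD14. Of 32 tested genes on a list of monocyte and macrophage differentiation, 4 were lower with guide 5, against 0.28% of all genes. None was higher, and 28 did not pass. The median difference was -0.57, from -0.74 to -0.35 over the alternatives, beside -0.07 over all genes. Both guide 5 libraries lay below both guide 3 libraries for 26 of 32, against 40.6% of all genes. By the unadjusted p 19 were lower, against 8.51% of all genes. For 30 of 32 the order of means was control, then guide 5, then guide 3, so guide 5 stood between control and guide 3. This order held for 33.9% of all tested genes. Without control replicate 2, 10 of the 32 were called lower, against 1.92% of all genes.

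S100A9 was at 37.1 and 29.8 FPKM with guide 5, at 172 and 133 FPKM with guide 3 and at 5.27, 3.74 and 5.42 FPKM in controls. Its partner S100A8, with which it forms calprotectin, was at 54.4 and 48.8 FPKM with guide 5, at 229 and 167 FPKM with guide 3 and at 6.49 to 6.997 FPKM in controls. The log2 differences were -2.17 ± 0.24 for S100A9 and -1.91 ± 0.22 for S100A8, each with adjusted p = 0.0018, and the 3 groups did not overlap for either gene. S100A12, a related inflammatory protein of the same gene cluster on chromosome 1, was at 3.67 and 2.54 FPKM with guide 5 and at 17.7 and 12.1 FPKM with guide 3, a difference of -2.09 ± 0.22 (adjusted p = 0.0016). FCN1, the monocyte ficolin, was at 6.31 and 5.96 FPKM against 21.1 and 17.1 FPKM, a difference of -1.56 ± 0.18 (adjusted p = 0.0021). These 4 genes passed whichever library was left out.

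The S100 and ficolin levels thus stood 3.11 to 4.79 times higher with guide 3 than with guide 5 on the FPKM scale. In the authors' deposited table, the log2 change of S100A9 over control was 4.98 with guide 3 and 2.80 with guide 5, and that of FCN1 was 7.78 and 6.14, values that share the same 3 controls. After correction for GC content and gene length, S100A8 kept a difference of -1.59 and lost its call, while S100A9 at -1.77 and FCN1 at -1.64 kept theirs.

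Other lower genes outside the list were in part known from phagocytes, and were grouped after their values were seen. HK3, the hexokinase of myeloid cells, was at 1.78 and 1.62 FPKM with guide 5 and at 5.51 and 4.81 FPKM with guide 3 (difference -1.36 ± 0.15, adjusted p = 0.0018). RNASE1, a secreted ribonuclease, was at 1.97 and 1.64 FPKM against 6.86 and 4.96 FPKM (difference -1.46 ± 0.22, adjusted p = 0.013, and 0.15 without guide 5 replicate 2). The gluconeogenic enzyme FBP1 (difference -1.01 ± 0.15), the galectin LGALS3 (-1.04 ± 0.15) and the membrane protease MMP25 of leukocytes (-1.07 ± 0.17) were lower as well, with adjusted p of 0.011, 0.011 and 0.014, which rose to 0.23, 0.20 and 0.30 without guide 5 replicate 2. The inhibitory receptors SIGLEC9 and LILRB3, the lysosomal sulfatase SGSH and the signalling protein NFAM1 had differences of -0.73, -0.72, -0.73 and -0.79, and lost their calls in at least 5 of the 7 fits with a library left out. DES, which encodes the muscle filament desmin, was at 0.426 and 0.418 FPKM with guide 5 and at 1.67 and 1.46 FPKM with guide 3 (difference -1.16 ± 0.12, adjusted p = 0.0010). HK3 and DES passed whichever library was left out. LILRP1, SLC9A7P1, RPL7AP64 and NOL5BP, also lower, are pseudogenes or pseudogene transcripts whose reads may belong to close copies.

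**Figure D4:**
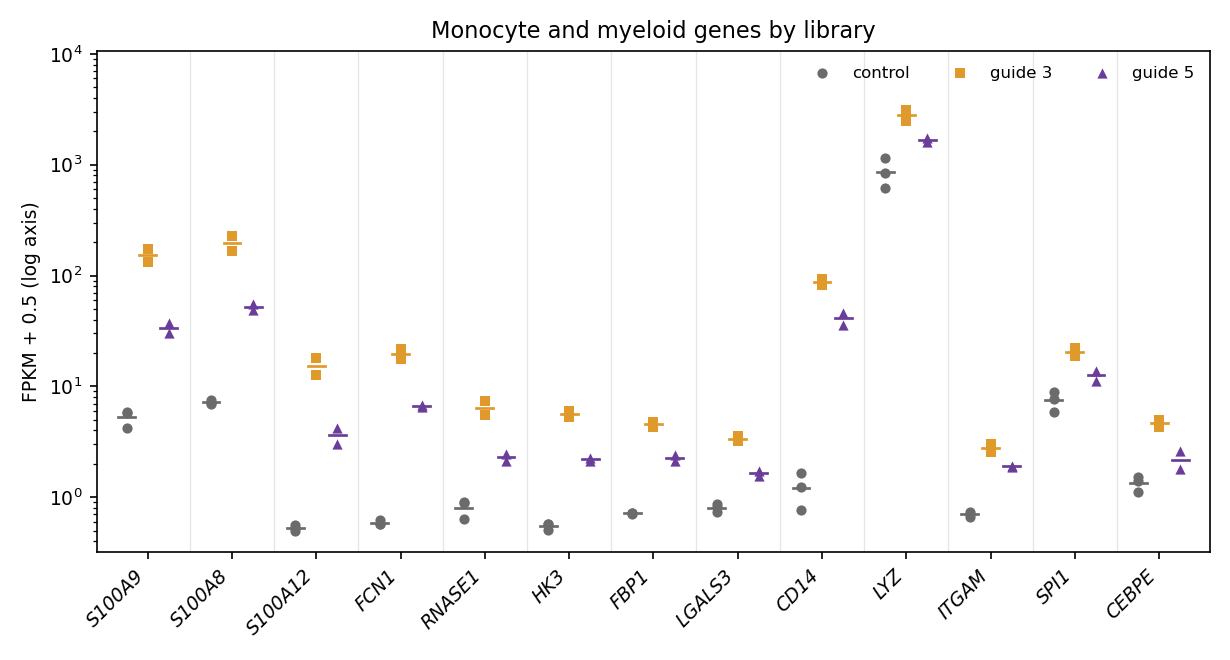
FPKM + 0.5 (log axis) of 13 monocyte and myeloid genes in each library, with controls as circles, guide 3 as squares, guide 5 as triangles and group means as lines. Guide 5 lies between control and guide 3 for every gene shown, with S100A9, S100A8, S100A12 and FCN1 at the widest gap between guides.

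The classical surface markers pointed the same way without a call. CD14, the lipopolysaccharide receptor, was at 45.8 and 35.5 FPKM with guide 5, at 91.8 and 81.1 FPKM with guide 3 and at 0.261 to 1.16 FPKM in controls, a difference between guides of -1.09 ± 0.32 (95% interval -1.80 to -0.38, adjusted p = 0.23). ITGAM, the integrin CD11b, was at 1.42 and 1.36 FPKM against 2.52 and 2.05 FPKM, a difference of -0.55 ± 0.15 (adjusted p = 0.17). LYZ, lysozyme, was at 1593 and 1751 FPKM with guide 5 and at 3131 and 2483 FPKM with guide 3 (adjusted p = 0.41). All 3 groups were apart for these 3 genes. TLR2, FCGR2A, CD86 and CLEC7A differed by between -0.15 and -0.01, so the list did not move evenly.

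Myeloid transcription factors gave 0 calls of 18 tested by limma. By the unadjusted p 2 were higher and 5 lower, against 2.9% and 8.51% of all genes. CEBPE, a factor of late granulocyte maturation, was at 2.08 and 1.29 FPKM with guide 5 and at 3.79 and 4.47 FPKM with guide 3 (difference -1.10 ± 0.22, adjusted p = 0.067). SPI1, which encodes PU.1, was at 13.4 and 10.7 FPKM against 18.2 and 21.7 FPKM (adjusted p = 0.29). On the other side, GFI1, a repressor active in progenitors, was at 12.5 and 11.9 FPKM with guide 5, at 7.52 and 9.21 FPKM with guide 3 and at 10.9 to 12.7 FPKM in controls (difference 0.52 ± 0.19, adjusted p = 0.35). Both guide 5 libraries lay below both guide 3 libraries for all 9 tested genes of the mature granulocyte list, against 40.6% of all genes. That list had 0 calls, and 4 were lower by the unadjusted p, against 8.51% of all genes. The list median was -0.51, from -0.53 to -0.28 over the alternatives. Its member NCF1, a subunit of the oxidase that makes superoxide, was at 3.62 and 4.01 FPKM with guide 5 against 5.74 and 5.98 FPKM with guide 3 (difference -0.56 ± 0.17, adjusted p = 0.25).

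Further genes higher with guide 5 fell outside these programs. PIM1, a survival kinase whose mRNA is AU-rich, was at 51.1 and 47.4 FPKM with guide 5, at 18.8 and 24.2 FPKM with guide 3 and at 13.4 to 13.7 FPKM in controls (difference 1.19 ± 0.20, adjusted p = 0.026, and 0.42 without guide 3 replicate 1). VEGFA, the vascular growth factor, was at 23.0 and 21.5 FPKM against 7.79 and 7.77 FPKM (difference 1.46 ± 0.28, adjusted p = 0.048, and 0.29 without guide 3 replicate 2). These were the only 2 calls among 12 tested AU-rich inflammatory mRNAs, whose median was -0.09 and changed sign with scaling, to 0.15 at the highest. TNF, the textbook target of this protein family, was at 55.3 and 50.9 FPKM with guide 5 and at 42.0 and 41.5 FPKM with guide 3 and did not pass (difference 0.34 ± 0.27). MYC was at 145 and 127 FPKM against 86.1 and 109.9 FPKM (difference 0.48 ± 0.25, adjusted p = 0.48).

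For the BMP antagonist NOG and the Notch ligand JAG1, as for XBP1, the mean with guide 3 lay below that of controls. NOG was at 2.45 and 2.03 FPKM with guide 5, at 0.564 and 0.774 FPKM with guide 3 and at 1.97 to 3.31 FPKM in controls (difference 1.23 ± 0.23, adjusted p = 0.040, and 0.43 without guide 3 replicate 1). JAG1 differed by 0.87 ± 0.17 and lost its call in 6 of the 7 fits with a library left out. G0S2, an inhibitor of fat breakdown, was listed at 0 in all 3 controls, at 0.756 and 0.594 FPKM with guide 3 and at 2.13 and 1.56 FPKM with guide 5 (difference 0.99 ± 0.15, adjusted p = 0.011). Of the 31 genes higher with guide 5, guide 3 lay between control and guide 5 for 19, below control with guide 5 above it for 11, and below a control that was itself highest for 1. Over all tested genes these 3 orders held for 7.58%, 3.42% and 29.7%. A gene called higher has guide 3 below guide 5 by selection, so only these 3 orders are open to it. Their shares over all genes therefore compare with each other only. Of the 19 lower genes, 18 had guide 5 above control and below guide 3. Genes called lower likewise have guide 5 below guide 3 by selection. Over all tested genes the order control, guide 5, guide 3 held for 33.9%. The other orders open to a lower gene held for 9.63% (guide 5, control, guide 3) and 15.8% (guide 5, guide 3, control). CTD-2529O21.1, a transcript inside an intron of TBC1D16 on the same strand, was at 2.66 and 2.79 FPKM with guide 5 against 0.272 and 0.379 FPKM, on 8 and 13 reads with guide 3 (difference 1.97 ± 0.13, adjusted p = 9.9e-05), and reads of unspliced TBC1D16 may be part of it.

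Several metabolic and growth lists were displaced with 0 calls in the limma fit used for the calls above and with voom on recovered reads. Some of these lists had calls under other fits. Of 44 tested nuclear genes for the respiratory chain, both guide 5 libraries lay below both guide 3 libraries for 40, against 40.6% of all genes. By the unadjusted p 15 were lower, against 8.51% of all genes, and the median was -0.50, from -0.59 to -0.26 over the alternatives. From the 4 guide libraries alone 22 were called lower, against 9.14% of all genes. Without control replicate 2, 5 were called lower, against 1.92%. NDUFA4, a cytochrome oxidase component, was at 8.03 and 6.06 FPKM with guide 5 and at 13.2 and 14.95 FPKM with guide 3 (difference -0.96 ± 0.24, adjusted p = 0.14). Of 25 tested genes for cholesterol and fatty acid synthesis, 22 had both guide 5 libraries below both guide 3 libraries, against the same 40.6%. By the unadjusted p 10 were lower, against 8.51% of all genes, with a median of -0.43, from -0.49 to -0.21. From the 4 guide libraries alone 9 were called lower, without control replicate 2 it was 2, and with GC and length correction 2. MVD, of the mevalonate pathway, was at 3.38 and 2.36 FPKM against 6.13 and 7.85 FPKM (difference -1.16 ± 0.25, adjusted p = 0.084), and FDPS, a later enzyme of that pathway, at 12.004 and 12.3 FPKM against 18.9 and 20.3 FPKM.

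Of 29 tested genes of G2 and M phase, 22 had both guide 5 libraries above both guide 3 libraries, against 23.1% of all genes. Of the 29, 3 were higher by the unadjusted p, against 2.9% of all genes, and the median was 0.36, from 0.096 to 0.55 over the alternatives. From the 4 guide libraries alone 8 of them were called higher, against 3.64% of all genes. Of 35 tested genes of S phase and DNA replication 12 (34.3%) lay so, against the same 23.1%. By the unadjusted p 2 were higher, against 2.9% of all genes, and the median of 0.06 ran from -0.04 to 0.25. For 22 of the 29 G2 and M phase genes the order of means was guide 3, then guide 5, then control, against 29.7% of all tested genes. TOP2A, the DNA-untangling enzyme of dividing cells, was at 20.4 and 25.1 FPKM with guide 5, at 15.7 and 13.9 FPKM with guide 3 and at 24.1 to 39.7 FPKM in controls (difference 0.60 ± 0.25, adjusted p = 0.39). Among 14 tested HOXA genes and targets of MLL fusions, which keep leukemia cells immature, 10 lay higher without overlap, against 23.1% of all genes. By the unadjusted p 2 were higher, against 2.9% of all genes, and the median was 0.31, from 0.14 to 0.51. From the 4 guide libraries alone 3 were called higher, against 3.64% of all genes. HOXA9 was at 8.49 and 9.88 FPKM with guide 5 against 6.36 and 7.03 FPKM, and FLT3 at 3.53 and 4.05 FPKM against 2.59 and 2.49 FPKM. HOXA10 (difference -0.09), HOXA11 (-0.11) and LMO2 (-0.16) lay the other way, and of these only LMO2 was without overlap.

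**Figure D5:**
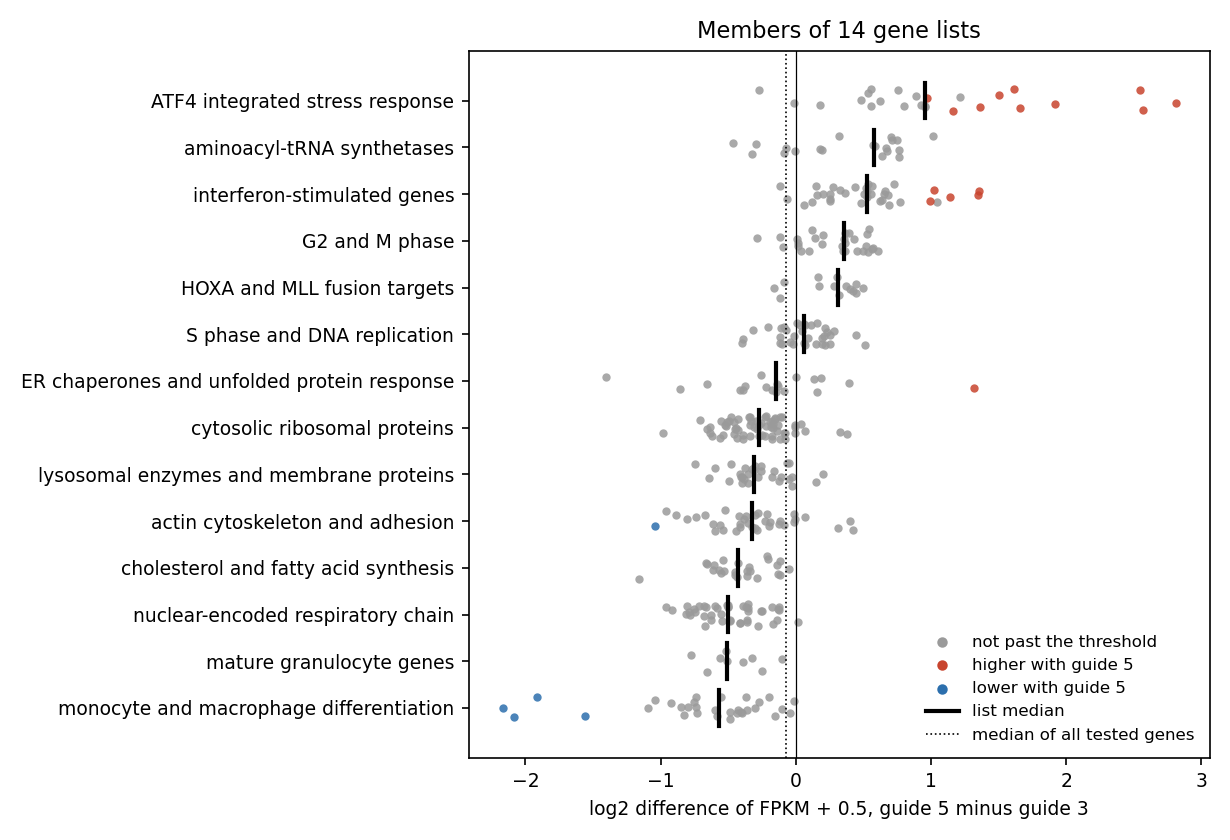
Log2 difference of FPKM + 0.5, guide 5 minus guide 3 (horizontal), of each tested member of 14 gene lists (rows), with genes higher with guide 5 in red, lower in blue, the list median as a thick bar and the median of all tested genes as a dotted line. The stress response list lies furthest right, with a median of 0.95, and the monocyte list furthest left, with a median of -0.57.

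Transcript GC content moved with the comparison across the whole table. In the tenth of tested genes with the lowest GC the median log2 difference was 0.16, and both guide 5 libraries lay above both guide 3 libraries for 46.7% of genes and below them for 6.92%. In the tenth with the highest GC the median was -0.39, with 1.62% above and 66.9% below. After correction for GC content and gene length, 39 genes were higher and 11 lower with guide 5, which moved the share of higher genes among calls from 62% to 78%. These sets held 26 of the 31 higher and 7 of the 19 lower genes called without the correction. The stress response median was then 1.01, the interferon median 0.45, the monocyte median -0.55, the respiratory chain median -0.33, the cholesterol median -0.41 and the G2 and M phase median 0.24. Scaling all libraries to a common sum raised the median of all genes to 0.13 and gave 59 higher and 10 lower genes, and the stress response, interferon and monocyte medians were then 1.17, 0.73 and -0.35.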

How the data were processed

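RNA of 7 MOLM13 libraries was analysed. The submitters' processing notes name the builds GRCh38.p7 and hg38 and the tools edgeR, limma, HTSeq and STAR 2.5.3, with no role, parameter or strand setting for any of them. The authors deposited FPKM per library, mean CPM per group and log2 changes of each guide over control, whose columns name guides 3 and 5. The deposited FPKM divide by the whole gene span, introns included. Multiplied by that length, 100% of values were multiples of a single read (tolerance 0.01). Tests of those reads called 39 genes higher and 6 lower as CPM, and 55 and 7 with voom.

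Genes that reached 1 FPKM in 2 or more libraries were fitted as log2(FPKM + 0.5) with limma 3.58.1 in R 4.3.3, with 3 group means, a trended prior variance (degrees of freedom 4 residual, 6.21 prior) and two-sided p adjusted by Benjamini-Hochberg. The 3 controls enter the filter, the residual variance and its degrees of freedom, not the difference itself. Coordinates, GC content and overlaps come from GENCODE 29, and promoters from RefSeq. Of 31 higher and 19 lower genes, 23 and 11 had a promoter.

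The comparison, members and 35 lists were chosen with earlier results of these data known. Named by rule were ZFP36L2, ZFP36 and ZFP36L1, the 15 highest and 15 lowest called genes without overlap, up to 4 called genes per list, CD14, ITGAM and MYC; others are examples chosen after their values were seen. Alternatives were pseudocounts of 0.1 and 1, filters, scalings, GC and length correction, replicate blocks, library weights and leaving out each library. The fit was tested on simulated data. Tables used Python 3.11.15, pandas 2.3.3 and numpy 2.4.6, and figures matplotlib 3.10.9.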

Additional observations from a re-analysis of the deposited data

How the results depend on the processing

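All 50 called genes kept their direction wherever tested, and 14 (DDIT4, STC2, CHAC1, ADM2, CTD-2529O21.1, TRIB3, PSAT1, CTH, GPT2, VLDLR, IFI44, IFI44L, S100A9, FCN1) passed under every alternative in which they were tested. Of 1247 values of named genes under the 23 alternatives, 947 kept direction and side of the threshold, 289 kept direction and lost the call, 10 gained it and 1 reversed: ZFP36L1 ran from -0.024 to 0.19 when libraries were left out in turn, the lowest without guide 3 replicate 2. The counts of higher and lower genes, 31 and 19, became 27 and 11 with 0.1 added, 49 and 48 without a filter, 5 and 4 at a mean FPKM of at least 5, 55 and 37 with quantile scaling, 59 and 10 with a common sum, 39 and 11 with GC and length correction, 247 and 620 from the 4 guide libraries alone, 333 and 895 with library weights, 39 and 6 with recovered CPM, and 55 and 7 with voom on recovered reads. The share of higher genes among calls, 62%, was 50.5% without a filter, 85.5% with a common sum, 86.7% with recovered CPM and 88.7% with voom. Leaving out each library in turn gave 13 to 89 higher and 6 to 130 lower genes. The cause of these shifts was not tested, apart from fewer genes tested at the stricter filter.

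With the replicate number as a block, 73 genes were higher and 123 lower, and 19 and 3 with GC and length correction as well. Deviations of same-numbered guide libraries correlated at -0.57 over 6783 genes. With 2 libraries a guide, crossed pairs give 0.57 by construction. Whether same-numbered libraries share a culture or batch cannot be told from this value. Crossed pairing, chosen after seeing the data, gave 16 and 6. The guide libraries held 28088053 to 38807816 reads. Some genes of low FPKM rest on few of them, such as 8 and 13 reads for CTD-2529O21.1 with guide 3. Others at a similar FPKM, such as IFI44L, rest on more reads, since FPKM here divide by the whole gene span.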

Other observations

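Heat shock proteins and chaperones of the cytosol and mitochondria gave 0 calls of 20 tested genes by limma and 0 with voom on recovered reads. By the unadjusted p 5 were lower and 0 higher, against 8.51% and 2.9% of all genes. The median was -0.27 and ran from -0.35 to -0.03 over the alternatives. HSPE1, the mitochondrial co-chaperonin, was at 6.91 and 6.83 FPKM with guide 5, at 13.3 and 12.2 FPKM with guide 3 and at 19.2 to 24.4 FPKM in controls. HSPA8, a constitutive chaperone, was at 151 and 188 FPKM with guide 5, at 270 and 244 FPKM with guide 3 and at 380 to 685 FPKM in controls. For both genes guide 5 was further below control than guide 3. HSPA9, the mitochondrial HSP70, lay the other way at 28.3 and 33.7 FPKM against 21.98 and 21.1 FPKM. None of the 3 passed the test.

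Cytosolic ribosomal proteins gave 0 calls of 63 tested. Both guide 5 libraries lay below both guide 3 libraries for 45, against 40.6% of all genes. By the unadjusted p 2 were lower, against 8.51% of all genes. The median was -0.27, from -0.33 to -0.02 over the alternatives, and reads of these genes may be shared with pseudogenes. Lysosomal genes gave 0 calls of 30, with 3 lower by the unadjusted p, near the share of all genes (8.51%). Their median was -0.31, from -0.37 to -0.07 over the alternatives. The protease gene CTSD was at 36.7 and 30.3 FPKM with guide 5, at 54.0 and 58.4 FPKM with guide 3 and at 6.34 to 10.4 FPKM in controls, an order shared with the monocyte genes. Among apoptosis genes, with 0 calls of 14 and 2 higher with voom on recovered reads, PMAIP1, the death inducer NOXA, was at 9.98 and 11.9 FPKM with guide 5, at 5.49 and 5.12 FPKM with guide 3 and at 3.62 to 6.31 FPKM in controls (difference 0.98 ± 0.24, adjusted p = 0.14). The primary granule list gave 0 calls of 12, and 1 higher with voom. By the unadjusted p 1 member of the list was higher and 3 lower, against 2.9% and 8.51% of all genes. Its member CST7, a cathepsin inhibitor, was at 6.50 and 5.71 FPKM with guide 5, within the controls at 5.08 to 8.86 FPKM, and at 2.497 and 2.70 FPKM with guide 3 (difference 1.09 ± 0.24, adjusted p = 0.097).

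Immediate early genes gave 0 calls of 22, with 1 higher and 2 lower by the unadjusted p, against 2.9% and 8.51% of all genes. EGR1, a growth factor response gene, was at 3.28 and 2.41 FPKM with guide 5 and at 1.29 and 0.991 FPKM with guide 3, with controls at 1.09 to 4.01 FPKM (difference 1.02 ± 0.39, adjusted p = 0.36). Below the level required for the test, ATF3 was at 0.164 and 0.200 FPKM with guide 5 and at 0.0528 and 0.04998 FPKM with guide 3, and FOSB at 0.708 and 0.653 FPKM against 0.216 and 0.207 FPKM.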
